A study of Homo sapiens with 6 samples.

Results

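The BCL2 family was followed through 10 genes of the deposited count table, which lists 39323 genes. The members were chosen by symbol as well-known regulators of mitochondrial apoptosis, with earlier results of these data known. All 10 passed the filter on low counts. They are the pro-survival genes BCL2, BCL2L1 and MCL1, the BH3-only genes BCL2L11, BMF, BBC3, PMAIP1 and BID, and the effectors BAX and BAK1. Polyadenylated RNA came from MDA-MB-231, a human triple-negative breast cancer line of mesenchymal character. Cells were transfected with lipid reagent and either a small interfering RNA (siRNA) duplex against SF3B6 (siSF3B6, 3 libraries) or a non-targeting duplex (siNC, 3 libraries). The SF3B6 protein touches the intron branch point as a subunit of SF3b, within the U2 particle of the spliceosome. Per their titles and protocols, all 6 libraries share the line and the transfection, although the cell line field of the labels gives each sample a different line number, counting upward. Each group received a single duplex, so effects of its sequence on other transcripts cannot be told apart from those of lower SF3B6.

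BCL2 proteins decide whether the outer mitochondrial membrane stays intact. BAX and BAK1 form pores in it and release cytochrome c, the pro-survival proteins hold them back, and BH3-only proteins bind the groove of the pro-survival proteins or activate the effectors directly. Each family member here carries a short BH3 motif, a helix that fits this groove. MCL1 and BCL2L1 are known to be spliced into long pro-survival and short pro-apoptotic forms, and inhibition of SF3b is known to shift MCL1 towards its short form. The deposited counts sum all forms of a gene, and protein was not measured.

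The BH3 core, a leucine codon, 3 further codons, a glycine or alanine codon and an aspartate codon, is the feature that joins the family. The coding sequence of the principal GENCODE 29 transcript (GRCh38) held exactly 1 match in each of the 10 members. The lines below give 45 coding bases 5′ to 3′ with the 18 bases of the core in capitals. They are shown because they tie together genes whose mRNA moved in opposite directions.
BCL2: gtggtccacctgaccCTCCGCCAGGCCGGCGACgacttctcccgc
BCL2L1: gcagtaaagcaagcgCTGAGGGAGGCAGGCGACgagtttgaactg
MCL1: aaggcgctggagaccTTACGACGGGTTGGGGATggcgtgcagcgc
BCL2L11: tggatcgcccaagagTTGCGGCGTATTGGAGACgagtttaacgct
BMF: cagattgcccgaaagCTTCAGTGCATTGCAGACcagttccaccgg
BBC3: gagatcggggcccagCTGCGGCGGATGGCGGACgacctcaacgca
PMAIP1: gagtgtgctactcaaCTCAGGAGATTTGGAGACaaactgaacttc
BID: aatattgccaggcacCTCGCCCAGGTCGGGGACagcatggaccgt
BAX: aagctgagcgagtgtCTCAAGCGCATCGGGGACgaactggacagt
BAK1: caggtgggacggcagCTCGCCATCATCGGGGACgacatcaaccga
Only the leucine, the glycine or alanine and the aspartate positions were required to match, and the GC content of the core was lowest in BMF and PMAIP1 and highest, at 83.3%, in BCL2.

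The siRNA target was lowered and the line carried markers of its type. SF3B6 had 86.4, 80.5 and 102 CPM (read counts scaled to a common library total with TMM factors) in siNC replicates 1 to 3. The siSF3B6 replicates, in the same order, had 22.5, 25 and 21.3 CPM, and the fitted level was 25.6% of siNC. Gene totals were 28504091 to 38546037 reads per library. The mesenchymal genes VIM, CAV1, AXL and CD44 averaged 3021, 622, 599 and 531 CPM in siNC. Of the 8 luminal epithelial markers, ESR1, PGR and FOXA1 were under the filter on low counts, and EPCAM, CDH1 and GATA3 rose by log2 fold changes of 1.09, 0.56 and 0.50, GATA3 not against siNC replicate 3 alone (0.34, adjusted p = 0.156). The luminal list, with KRT8 and KRT18 at its top, summed to 1757 to 1833 CPM in siNC and 1781 to 2051 CPM in siSF3B6. Fibroblast markers (13.0 to 16.7 against 17.2 to 24.0 CPM), haematopoietic markers (2.69 to 4.11 against 4.49 to 11.8 CPM) and endothelial markers (12.2 to 13.8 against 9.09 to 10.8 CPM) were low in both groups. In bulk RNA, fewer cells of a kind and less RNA per cell cannot be told apart, and the part of these markers in the results was not tested. The libraries of a group were not alike. The mitochondrial share of reads was 10.6% to 11.8% after knockdown and 9.07% in siNC replicate 3, but 3.38% and 3.93% in the other siNC libraries. Genes with 1 to 9 reads numbered 13952 and 14956 in siNC replicates 1 and 2. There were 7731 in siNC replicate 3 and 7877 to 8325 in the siSF3B6 libraries. Across 16675 genes, the log2 fold change fell with the GC content of the transcript (Spearman rho -0.34, across genes, which are not independent). The part of any of these in the results below was not tested. Each member's change is also given against siNC replicate 3 alone or with an adjustment for GC content and length where that alters the call.

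Among the 10 members, 4 of the 5 BH3-only mRNAs rose after SF3B6 knockdown, led by BMF and PMAIP1 at about 2-fold. Both effector mRNAs, BAX and BAK1, fell. The 2 abundant pro-survival mRNAs, BCL2L1 and MCL1, did not pass the test, and the rare BCL2 mRNA fell. The difference between roles was not tested. BAD, a BH3-only gene outside the 10, fell (-0.50, adjusted p = 0.00764). In all, 4 members were called higher and 3 lower at an adjusted p under 0.05 (edgeR quasi-likelihood test, Benjamini-Hochberg over all 16869 genes tested). That threshold called 40.8% of all genes, 20.8% higher and 20.0% lower, so 7 of 10 members stands against a background in which calls are common. Scaling by library size alone turned that split from 3509 higher and 3380 lower genes to 2459 and 4558. The groups did not overlap for 6 of 10 members, against 52.1% of all genes. For each of those 6 a two-sided exact permutation p of 0.1 was reached, and 3 libraries against 3 cannot give a smaller one.

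**Figure D1:**
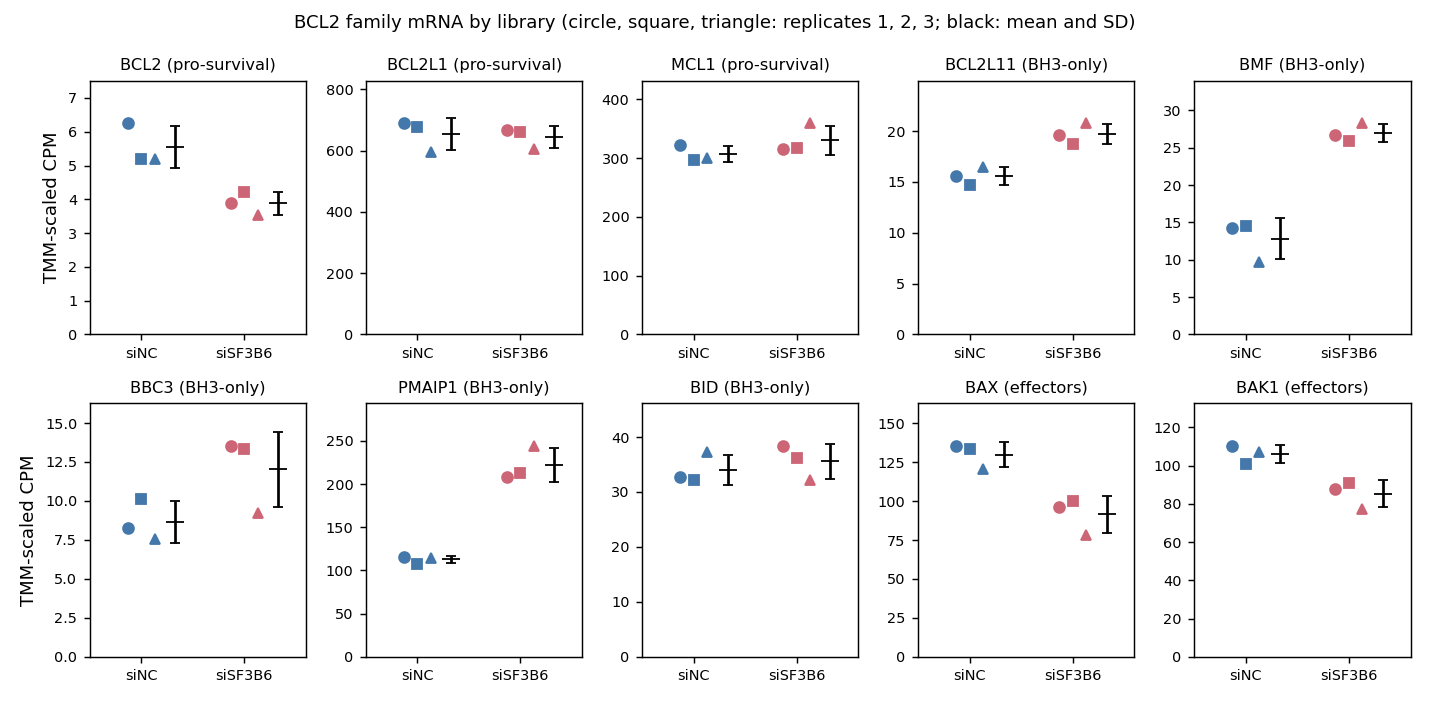
TMM-scaled CPM (y axis, linear from 0) of each BCL2 family member in the 3 siNC and 3 siSF3B6 libraries, with symbols for replicates and black bars for mean and SD. BMF and PMAIP1 lie higher in every siSF3B6 library than in any siNC library, BAX and BAK1 lower, and the BCL2L1, MCL1, BBC3 and BID groups overlap.

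BMF, a BH3-only protein held on the cytoskeleton until stress frees it, had the largest fitted change of the 10 members, ahead of PMAIP1. That order turned without siNC replicate 3 (0.91 for BMF and 0.99 for PMAIP1), in the libraries numbered 1 and 2 alone (0.87 and 0.92) and with log2(FPKM + 1) (0.76 and 0.91). With log2(FPKM + 0.1) the order was kept (1.01 for BMF and 0.92 for PMAIP1). The siNC libraries held 14.2, 14.6 and 9.68 CPM of BMF mRNA, and the knockdown libraries 26.7, 25.9 and 28.3 CPM. The lowest siSF3B6 library was well above the highest siNC library, and siNC replicate 3 was the lowest of all. Its fitted log2 change was 1.07 (SE 0.131, n = 3 per group, edgeR adjusted p = 4.37e-05), above that of 98.1% of all genes tested. It reached 1.46 (adjusted p = 0.000256) against siNC replicate 3 alone and 1.17 with the GC and length offset. BMF (ENSG00000104081.14) lies at chr15:40087890-40108892 on the minus strand, with the BH3 core in exon 4 of 5 (chr15:40104207-40104224). The antisense gene BMF-AS1 covers 8.46% of its exonic bases and had 49 reads over all libraries.

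PMAIP1 encodes NOXA, a BH3-only protein that binds chiefly MCL1 and promotes its degradation. At 116, 108 and 115 CPM in the controls, PMAIP1 mRNA stood at 208, 213 and 244 CPM after knockdown. The siNC libraries lay close together, and every siSF3B6 library was far above them. On the log2 scale the fitted change was 0.98 (SE 0.0837, adjusted p = 3.62e-06), with 0.94 (adjusted p = 0.00124) against siNC replicate 3 alone and 0.79 with the GC and length offset. PMAIP1 (ENSG00000141682.12) lies at chr18:59899948-59904306 on the plus strand, with the BH3 core in exon 2 of 2 (chr18:59902673-59902690). It was covered by 3253 to 7868 reads per library.

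BCL2L11 encodes BIM, which binds all pro-survival members and can activate BAX and BAK1. Control libraries had 15.5, 14.7 and 16.5 CPM for BCL2L11, against 19.6, 18.7 and 20.8 CPM once SF3B6 was lowered. The groups were apart, but by little: the log2 fold change was 0.34 (SE 0.0923, adjusted p = 0.010). The gene missed the threshold against siNC replicate 3 alone (0.24, adjusted p = 0.280), with library size alone (0.24, adjusted p = 0.0604), with unfiltered log2(FPKM + 1) (0.20, adjusted p = 0.0914) and without siNC replicate 2 (0.30, adjusted p = 0.0604). BCL2L11 lies at chr2:111119378-111168447 on the plus strand, with its core in exon 4 of 5 (chr2:111150103-111150120). The long noncoding gene MIR4435-2HG runs antisense over 10.9% of its exonic bases. That gene had 137 to 157 CPM in siNC and 110 to 122 CPM in siSF3B6, and fell (-0.31, adjusted p = 0.00849). Whether the counting kept the strands apart is not given in the sources used here.

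BBC3 encodes PUMA, a BH3-only protein induced by several stress pathways. For BBC3, siNC replicates gave 8.27, 10.1 and 7.56 CPM, whereas siSF3B6 replicates gave 13.5, 13.3 and 9.25 CPM. The siSF3B6 replicate 3 value fell inside the siNC range, and the exact two-sided permutation p was 0.2. At 0.48 on the log2 scale (SE 0.153, edgeR adjusted p = 0.0224), it was the called member that most often lost its call. It missed the threshold in 9 of 20 alternatives, namely library size alone, the 3 FPKM fits, siNC replicate 3 as sole control (0.66, adjusted p = 0.0583), and leaving out siNC replicate 1 (0.45, adjusted p = 0.0683) or 3 (0.39, adjusted p = 0.0634) or siSF3B6 replicate 1 (0.39, adjusted p = 0.0924) or 2 (0.40, adjusted p = 0.0758). BBC3 has the most GC-rich transcript of the 10, at 69.7%, and with the GC and length offset its log2 fold change was 0.88 (adjusted p = 2.05e-05). It lies at chr19:47220822-47232766 on the minus strand, with the core in exon 3 of 4 (chr19:47226591-47226608).

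BID, which links death receptors to mitochondria once caspase-8 has cut it, was the BH3-only member that did not pass the test. The siNC libraries held 32.8, 32.2 and 37.2 CPM of BID mRNA, and the knockdown libraries 38.4, 36.2 and 32.1 CPM. The libraries of the groups were interleaved. The log2 fold change was 0.06 (95% interval -0.14 to 0.27, adjusted p = 0.626), which leaves room for a fall to 0.907-fold or a rise to 1.2-fold. The direction turned with library size alone (-0.04) and against siNC replicate 3 alone (-0.08). BID lies at chr22:17734138-17774770 on the minus strand, with the core in exon 4 of 6 (chr22:17739427-17739444).

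BAX, the effector that moves from the cytosol to mitochondria, fell. At 136, 134 and 120 CPM in the controls, BAX mRNA stood at 96.1, 100.2 and 78.0 CPM after knockdown. In both groups replicate 3 was the lowest library, and the groups did not overlap. Its fitted log2 change was -0.51 (SE 0.0974, adjusted p = 0.00111), or 70.4% of the siNC level. It missed the threshold against siNC replicate 3 alone (-0.41, adjusted p = 0.0776) and passed with the GC and length offset (-0.33, adjusted p = 0.00038). BAX (ENSG00000087088.20) lies at chr19:48954815-48961798 on the plus strand, with the core in exon 3 of 6 (chr19:48955787-48955804).

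BAK1, the effector that sits in the mitochondrial membrane throughout, fell less. Control libraries had 110, 101 and 107 CPM for BAK1, against 87.7, 90.6 and 77.5 CPM once SF3B6 was lowered, and the groups were apart. On the log2 scale the fitted change was -0.31 (SE 0.0833, adjusted p = 0.00847), or 80.4% of the siNC level. The GC and length offset reduced it to -0.13 (adjusted p = 0.0828), and against siNC replicate 3 alone it was -0.34 (adjusted p = 0.10). Both effector transcripts are GC-rich, at 58.9% for BAX and 58.8% for BAK1. BAK1 lies at chr6:33572547-33580293 on the minus strand, with the core in exon 4 of 6 (chr6:33575399-33575416).

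BCL2L1, whose long form is the pro-survival protein BCL-XL, was the most abundant member. For BCL2L1, siNC replicates gave 689, 678 and 594 CPM, whereas siSF3B6 replicates gave 668, 661 and 605 CPM. The 6 libraries overlapped fully, with replicate 3 lowest in each group. The log2 fold change was -0.02 (95% interval -0.21 to 0.17, adjusted p = 0.879), an interval of 0.864-fold to 1.13-fold. The sign turned in 5 of 20 alternatives, and in none of the 20 did the gene pass the threshold. BCL2L1 lies at chr20:31664452-31723989 on the minus strand, with the core in exon 2 of 3 (chr20:31721934-31721951). The antisense gene ABALON covers 43.0% of its exonic bases and was counted at 11.9 to 15.8 CPM in siNC and 13.0 to 17.4 CPM in siSF3B6.

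MCL1, a short-lived pro-survival protein, did not pass the test. The siNC libraries held 323, 297 and 301 CPM of MCL1 mRNA, and the knockdown libraries 316, 317 and 359 CPM. Only siSF3B6 replicate 3 rose above the siNC range. Its fitted log2 change was 0.11 (95% interval -0.07 to 0.29, adjusted p = 0.317), an interval of 0.953-fold to 1.22-fold. It stayed positive and short of the threshold in all 20 alternatives. MCL1 lies at chr1:150574551-150579738 on the minus strand, with the core in exon 1 of 3 (chr1:150578877-150578894).

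BCL2, the founding pro-survival member, was rare and fell. At 6.25, 5.2 and 5.18 CPM in the controls, BCL2 mRNA stood at 3.88, 4.22 and 3.53 CPM after knockdown, from 108 to 195 reads per library. The groups were apart, and the fitted log2 change was -0.51 (SE 0.141, edgeR adjusted p = 0.0107). It missed the threshold against siNC replicate 3 alone (-0.43, adjusted p = 0.166), without siNC replicate 1 (-0.42, adjusted p = 0.0634) and with unfiltered log2(FPKM + 1) (-0.14, adjusted p = 0.205), a scale that compresses low values. BCL2 lies at chr18:63123346-63320128 on the minus strand, with the core in exon 2 of 3 (chr18:63318361-63318378).

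**Figure D2:**
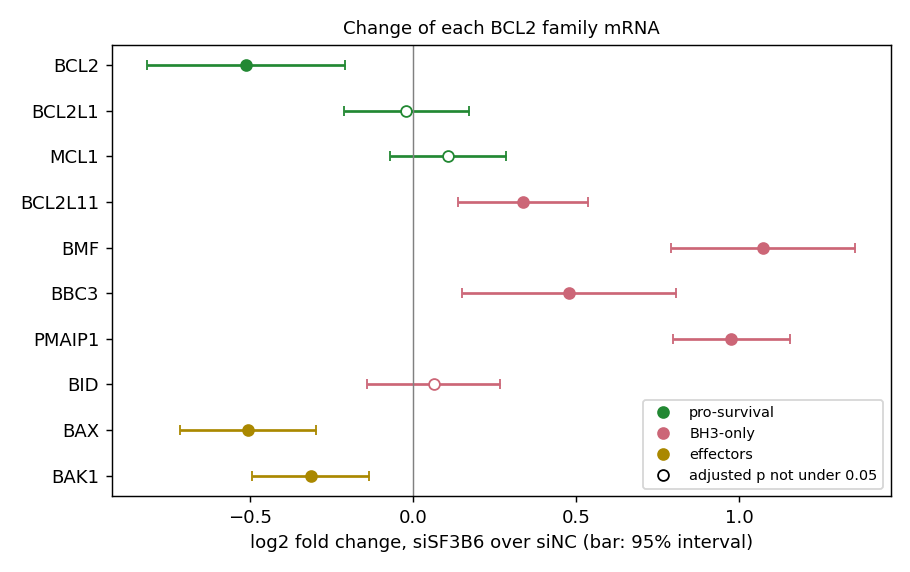
Log2 fold change (x axis) of each member, siSF3B6 over siNC, with its 95% interval; colours mark roles and open circles the members that did not pass the threshold. The BH3-only members run from 0.06 (BID) to 1.07 (BMF), the effectors lie at -0.51 and -0.31, and the intervals of BCL2L1 and MCL1 include 0.

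Against siNC replicate 3 alone, 2 members passed the threshold, BMF and PMAIP1, in a fit that called 13.8% of all genes. The fit takes the spread of that lone control from the knockdown group. The direction of the other 5 called members was the same there. Among the libraries numbered 1 and 2 alone, all 7 called members passed and BID joined them (0.20, adjusted p = 0.00401). That fit, of close pairs whose spread is narrow, called 55.6% of all genes. It leaves out siNC replicate 3, the siNC library closest to the siSF3B6 libraries in mitochondrial share and in genes with 1 to 9 reads.

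**Figure D3:**
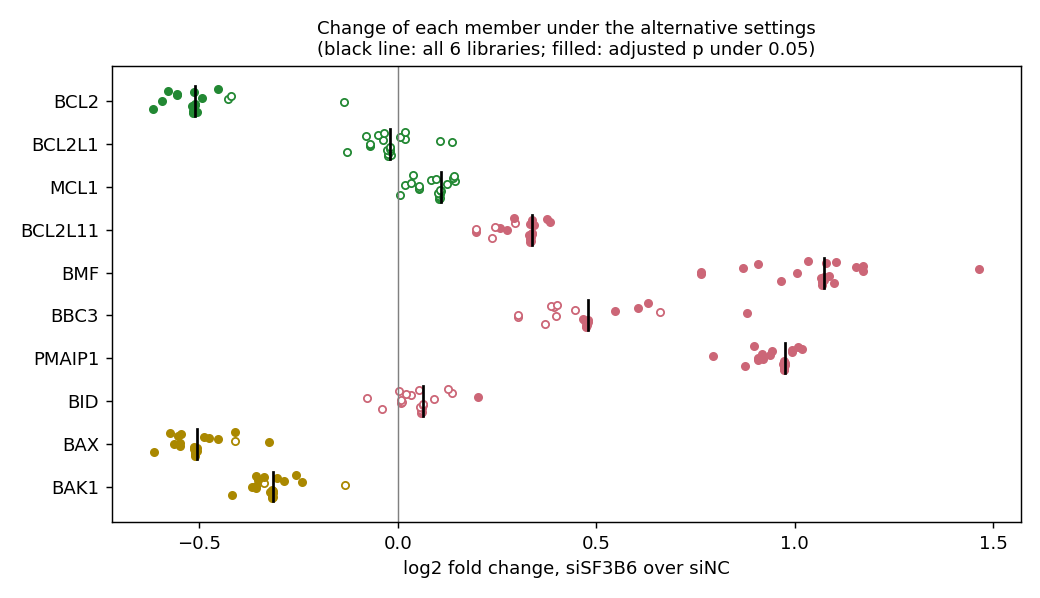
Log2 fold change (x axis) of each member under each of the 20 alternative settings that could test it (18 for BCL2), filled where the adjusted p was under 0.05, with a black line at the value from all 6 libraries. BMF and PMAIP1 are filled throughout, BBC3 is open in 9 settings, and BCL2L1 and BID lie on both sides of 0.

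Levels can be compared between genes only per length, here as the FPKM of the authors. In siNC, BCL2L1 was highest at 133 ± 9.46 FPKM (SD, n = 3). PMAIP1 (44.2 ± 2.08), BAX (43.0 ± 2.38), MCL1 (42.2 ± 1.96) and BAK1 (41.0 ± 2.14 FPKM) followed as a group in which each neighbour's range overlapped the next. BID stood alone at 6.60 ± 0.604 FPKM. BBC3 (2.32 ± 0.337), BMF (2.01 ± 0.410) and BCL2L11 (2.00 ± 0.135 FPKM) again overlapped in sequence, and BCL2 was last at 0.377 ± 0.0379 FPKM. The level of a BH3-only mRNA thus ranged from among the highest in the family to among the lowest.

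After SF3B6 knockdown that order changed. PMAIP1, at 83.8 ± 7.28 FPKM, stood apart from MCL1 at 43.9 ± 3.22 FPKM, and MCL1 stood apart from BAK1 (31.8 ± 2.63) and BAX (29.2 ± 3.81 FPKM), which overlapped. BMF, at 4.09 ± 0.175 FPKM, now stood above BBC3 at 3.12 ± 0.633 FPKM, whose range overlapped that of BCL2L11 at 2.44 ± 0.121 FPKM. BCL2L1 (127 ± 7.0), BID (6.65 ± 0.601) and BCL2 (0.253 ± 0.0252 FPKM) kept their ranks.

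Ratios within a library do not depend on how libraries are scaled to each other. The MCL1 to PMAIP1 ratio of FPKM was 0.979, 0.969 and 0.921 in siNC and 0.533, 0.523 and 0.517 in siSF3B6. These mRNAs, whose proteins bind each other, went from near parity to a clear excess of PMAIP1 in every knockdown library. The BCL2L1 to BAX ratio moved the other way, from 3.13, 3.13 and 3.04 to 4.29, 4.07 and 4.78, and the MCL1 to BAK1 ratio from 1.04, 1.05 and 1.00 to 1.28, 1.24 and 1.65. For each of the 3 ratios the groups were apart. They are given as descriptions with no test, since the pairs were picked with earlier results known. The ratios carry no adjustment for GC content. With the GC and length offset, the log2 fold changes were 0.02 for MCL1, 0.79 for PMAIP1 and 0.14 for BCL2L1. For the effectors they were -0.33 (BAX) and -0.13 (BAK1), against -0.51 and -0.31 without the offset.

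The sum of the pro-survival members against the sum of the pro-apoptotic members moved little. The ratio of summed FPKM was 1.27, 1.3 and 1.17 in siNC and 1.09, 1.06 and 1.03 in siSF3B6, a mean of 1.25 ± 0.0654 against 1.06 ± 0.0282 (SD, n = 3). The groups were apart, and the small shift held opposite movements inside the pro-apoptotic side. Pro-survival to BH3-only mRNA went from 3.08 ± 0.231 to 1.71 ± 0.141, while pro-survival to effector mRNA went from 2.09 ± 0.0774 to 2.82 ± 0.250. These ratios, too, carry no adjustment for GC content. All the sums cover the 10 members only. BAD, a BH3-only gene outside them, averaged 60.2 FPKM over the 6 libraries, close to PMAIP1 at 64.0 FPKM. Its mRNA fell from a mean of 143 CPM in siNC to 101 CPM in siSF3B6. How far the ratios depend on leaving BAD out was not tested. BH3-only genes made up 17.4% to 19.1% of the summed member FPKM in siNC and 28.8% to 32.8% in siSF3B6, effectors 26.2% to 26.9% and then 16.4% to 19.6%. PMAIP1 alone rose from 13.3% to 14.9% of that sum to 23.6% to 28.1%. As log2 fold changes, the median was -0.02 over the 3 pro-survival members, 0.48 over the 5 BH3-only members and 0.34 over all 7 pro-apoptotic members, against 0.00093 over all genes tested. The pro-survival minus the pro-apoptotic median was -0.36, and -0.14 against siNC replicate 3 alone. Each of these medians is the value of a single gene, BCL2L1 for the pro-survival and BCL2L11 for the pro-apoptotic members.

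**Figure D4:**
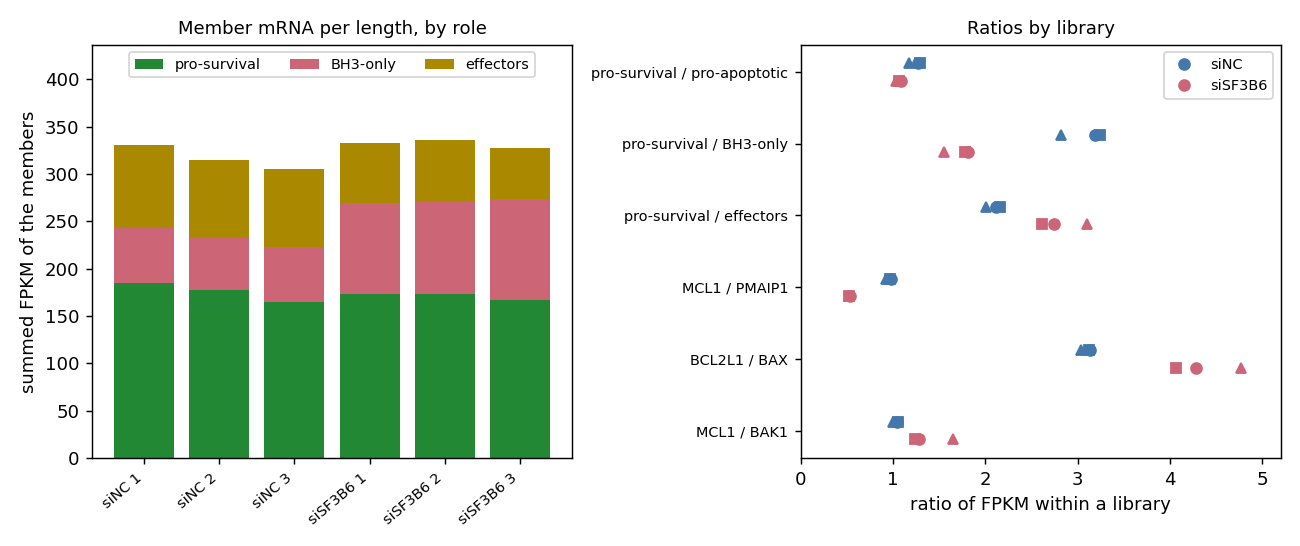
Left, summed FPKM of the members by role in each library (stacked bars from 0). Right, ratios of FPKM within each library, blue for siNC and red for siSF3B6, with circles, squares and triangles for replicates 1, 2 and 3. The MCL1 to PMAIP1 ratio falls from 0.921 to 0.979 in siNC to 0.517 to 0.533 in siSF3B6, while BCL2L1 to BAX rises.

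Of the BH3-only members, BMF and PMAIP1 rose most before adjustment for GC content and length. With the GC and length offset, the log2 fold change of BBC3 (0.88) was above that of PMAIP1 (0.79). BMF and PMAIP1 are shown with the sequence around their RefSeq start, because the data bear on their mRNA level. A reader may want to look for shared elements. Each run is 300 bases of GRCh38.p14 on the strand of the gene, 250 before the start to 50 after it (BMF chr15:40108830-40109129, minus strand; PMAIP1 chr18:59899746-59900045, plus strand). Capitals mark matches, on either strand, of 8 motifs searched: the CRE half-site TGACG, the E-box CACGTG, the FOXO site GTAAACA, the NF-kB site (GGGA, any 4 bases, then CC), the AP-1 site TGANTCA, the E2F site TTTCCCGC, the SP1 box GGGCGG and the TATA box TATAAA.
BMF: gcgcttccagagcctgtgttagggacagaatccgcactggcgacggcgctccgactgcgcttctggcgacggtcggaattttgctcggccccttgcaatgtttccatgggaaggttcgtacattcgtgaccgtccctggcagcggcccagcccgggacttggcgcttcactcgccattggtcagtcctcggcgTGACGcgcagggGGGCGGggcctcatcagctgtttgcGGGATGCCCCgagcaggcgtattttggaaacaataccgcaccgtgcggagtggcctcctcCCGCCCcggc
PMAIP1: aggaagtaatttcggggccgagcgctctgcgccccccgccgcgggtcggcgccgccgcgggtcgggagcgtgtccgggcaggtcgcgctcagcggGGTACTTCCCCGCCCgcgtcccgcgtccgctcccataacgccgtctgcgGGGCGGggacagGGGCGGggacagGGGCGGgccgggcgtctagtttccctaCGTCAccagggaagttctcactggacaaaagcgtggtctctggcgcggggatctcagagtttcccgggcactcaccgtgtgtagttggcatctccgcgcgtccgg
Both printed windows held a CRE half-site (24.6% of 35116 RefSeq promoter windows do), an NF-kB match (25.6%) and the SP1 box (45.0%), which occurred in 2 places in BMF and 4 in PMAIP1. In PMAIP1 the NF-kB match overlaps an SP1 box. A second RefSeq window of BMF (chr15:40106917-40107216) held none of the 8 motifs, and the window of BCL2, whose mRNA fell, also held a CRE half-site and an NF-kB match. Such matches are common and are descriptions of the sequence only. The window of BCL2L11 held a FOXO match (3.42% of windows), that of BBC3 an E-box (7.26%) and an AP-1 match (7.71%), and that of BAX 4 E-boxes. An E-box also lay in some windows of BID, whose mRNA did not pass the test. The table matched 9 of the 10 members.

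Other genes of the family also moved in both directions. Of 13 further genes, 9 passed the filter on low counts, and 2 of these rose and 4 fell (median log2 fold change 0.09), where 40.8% of all genes were called. The counts were 3 and 3 once GC content and length were adjusted for, in a fit that called 46.4% of all genes. BNIP3L (0.67) and BNIP3 (0.47), which mark mitochondria for autophagy and respond to low oxygen, rose. BCL2L12 (-0.87), BOK, an effector-like member (-0.50), the BH3-only gene BAD (-0.50) and BCL2L13 (-0.24) fell. BAD lost its call with the GC and length offset (-0.17, adjusted p = 0.0578) and against siNC replicate 3 alone (-0.23, adjusted p = 0.377), where BOK (-0.40, adjusted p = 0.0826) and BCL2L13 (-0.22, adjusted p = 0.278) did too. BCL2L13 also lost it with no filter on low counts (-0.25, adjusted p = 0.0740) and in 4 of the 6 fits that left out a library. Against that control alone, 2 of 10 rose and 1 fell.

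Downstream of the pore, 7 of 14 genes of the outer membrane, the apoptosome and caspase control rose and 3 fell (median 0.24), where 20.8% of all genes were called higher and 20.0% lower. The counts were 5 and 4 once GC content and length were adjusted for (median 0.11), in a fit that called 46.4% of all genes. BIRC2, an inhibitor of apoptosis that ubiquitinates other proteins, rose by 0.67. HTRA2, a mitochondrial protease released with cytochrome c, changed by -0.70 and the channel gene VDAC3 by -0.47. Genes for and against cell death were on both sides. Against siNC replicate 3 alone 2 rose and 1 fell, and VDAC3 missed the threshold (-0.33, adjusted p = 0.0811).

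Among 12 transcription factors that act on BH3-only genes, 4 rose and 2 fell (median 0.14), a share near the 40.8% called over all genes. The counts were 7 and 2 once GC content and length were adjusted for (median 0.25), in a fit that called 46.4% of all genes. MYC (0.61), FOXO3, which drives BCL2L11 and BBC3 (0.46), and RELA, a subunit of NF-kB (0.38), rose. E2F1, which activates several BH3-only genes, fell by 1.34 on the log2 scale. Against siNC replicate 3 alone 2 rose and 2 fell, and FOXO3 (0.45, adjusted p = 0.0632) and RELA (0.38, adjusted p = 0.0724) missed the threshold. ATF4 (0.13, adjusted p = 0.201) and DDIT3 (0.21, adjusted p = 0.0620), factors of the integrated stress response that act on PMAIP1, were picked for their known role and missed the threshold. Both passed with the GC and length offset (0.29, adjusted p = 0.000926, and 0.23, adjusted p = 0.00778) and in the libraries numbered 1 and 2 alone (0.14, adjusted p = 0.00155, and 0.26, adjusted p = 0.000671). DDIT3 also passed with the replicate block (0.21, adjusted p = 0.0228) and without siSF3B6 replicate 3 (0.26, adjusted p = 0.0206).

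**Figure D5:**
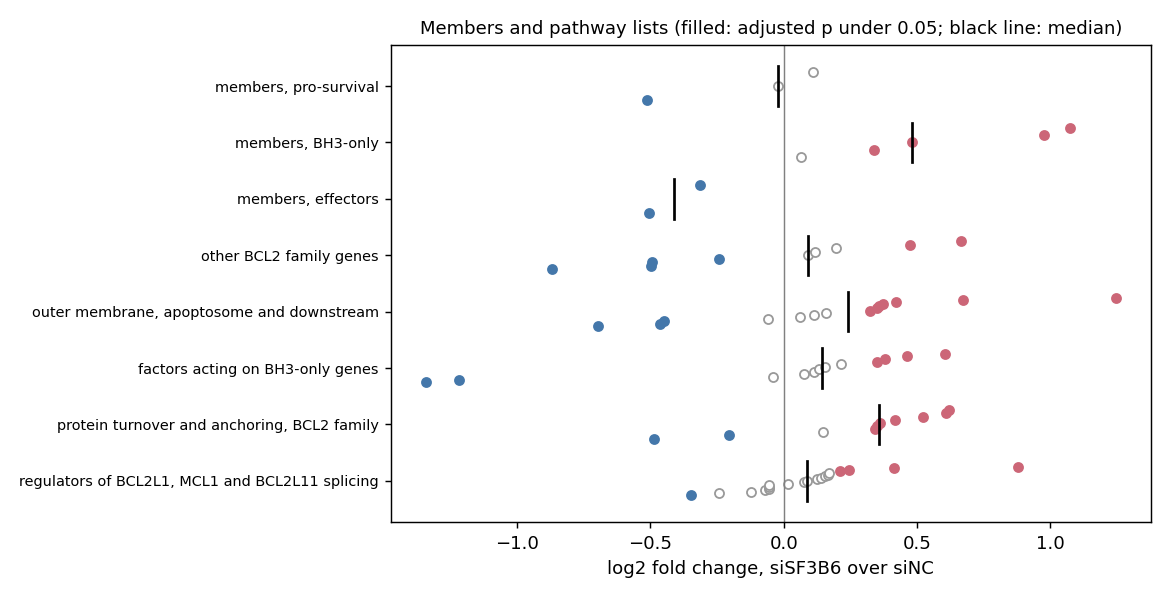
Log2 fold change (x axis) of every tested gene in the member groups and the pathway lists, red for called higher, blue for called lower, open grey for not called, with a black line at each list's median. Every pathway list holds genes on both sides of 0, and the BH3-only and effector groups lie on opposite sides.

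Genes whose level tracked the family leaders over the 6 libraries were found by Pearson's r of log2 CPM over 11298 genes of at least 5 CPM, as a description with no test. For BMF, the largest rise, they were ANKRD52 (r = 0.996), FASTKD5 (0.996) and PMEPA1 (0.996), and 2.67% of genes had r over 0.95. For BAX, the largest fall among members of at least 5 CPM, they were TMEM147 (0.999), ECHS1 (0.999) and MTCH1 (0.999), and 11.1% of genes had r over 0.95. With 6 libraries in 2 groups, many genes that differ between the groups reach such values.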

How the data were processed

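Polyadenylated RNA of 6 MDA-MB-231 libraries, 3 siNC and 3 siSF3B6, was grouped by the sample titles. Per the labels, the library kit kept strand. The authors deposited raw gene-level counts, which are whole numbers, and the authors' FPKM in a second table. The submitters' processing notes name HISAT2, DESeq2 and the build hg38. Which counter, strand option and annotation made the tables is not given in the sources used here.

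Counts were filtered with filterByExpr, scaled by TMM and tested with edgeR 4.0.16 (glmQLFit, glmQLFTest; R 4.3.3), siSF3B6 against siNC, with p-values adjusted by Benjamini-Hochberg over all 16869 genes at a threshold of 0.05. The test was checked on simulated data. Standard errors are the log2 fold change over the square root of F, and 95% intervals use its degrees of freedom. Pathway genes named are up to 4 called genes per list of at least 5 CPM with the largest change, other names being marked. A few genes and 1 list are not reported here. The members and lists were chosen with earlier results of these data known. GENCODE 29 (GRCh38) gave loci and coding sequence, RefSeq the promoters.

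Deviations from group means correlated between same-numbered libraries (r = 0.167, 0.345 and 0.351 for replicates 1, 2 and 3, over 11299 genes). Each was over 0.1, so the numbers were taken to pair the libraries in an alternative fit, the replicate block. The edgeR fit described above left the pairing out. The pairing comes from the values, not from a label, and siNC replicate 2 correlated with siSF3B6 replicate 1 almost as well (0.338). Replicates are termed biological by the submitters, without a statement on separate cultures, and p-values cover only the variation seen among these 6 libraries. The 20 alternatives used DESeq2 1.42.0, limma 3.58.1 (voom, or log2 FPKM with a pseudocount of 1 or 0.1 and a minimum mean of 0.5 FPKM or none), RLE factors, library size, other filters, robust dispersion, a replicate block, a GC and length offset (lowess span 0.3) and fewer libraries.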

Additional observations from a re-analysis of the deposited data

How the results depend on the processing

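The replicate block (4 members higher, 3 lower, 8052 genes called in all) changed no member's call and, among the other genes named, only that of DDIT3. No member's call changed with DESeq2, limma-voom, RLE factors, either other count filter or robust dispersion. The calls of BMF and PMAIP1 held in all 20 alternatives. The members called higher were 2 with library size alone, with unfiltered log2(FPKM + 1) and against siNC replicate 3 alone. In that last fit (edgeR) 0 members were called lower, 3 at an unadjusted p under 0.05, and 1178 and 1293 of all genes were called higher and lower. Unfiltered log2(FPKM + 1) called 1561 genes higher. Leaving out single libraries gave 3 to 4 members higher and 2 to 3 lower, and 2503 to 3881 genes higher and 2503 to 3690 lower.

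The pro-survival median minus the pro-apoptotic median of log2 fold changes was -0.36, which is BCL2L1 minus BCL2L11. It was -0.21 and -0.28 with filtered log2(FPKM + 1) and log2(FPKM + 0.1), -0.27 with unfiltered log2(FPKM + 1), -0.24 with the GC and length offset, -0.14 against siNC replicate 3 alone, and -0.47 to -0.27 over the fits that left out a library. The sign of BCL2L1 turned with the offset (0.14), against siNC replicate 3 alone (0.11) and without siNC replicate 1 (0.0175), siNC replicate 2 (0.0045) or siSF3B6 replicate 3 (0.018), with -0.081 to 0.018 over all fits that left out a library. BID turned with library size alone (-0.039) and against siNC replicate 3 alone (-0.077). The cause was not tested. Library size alone moved the median of all genes by -0.10. BCL2 lies under the minimum of 0.5 FPKM and has no value in the 2 filtered FPKM fits. Depth limits BCL2 and BBC3 most, at 108 to 492 reads per library.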

Other observations

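Genes that control the turnover or anchoring of BCL2 family proteins were mostly higher in siSF3B6. Of 10 tested, 7 rose and 2 fell (median log2 fold change 0.36), where 20.8% of all genes were called higher and 20.0% lower, with 8 and 2 under the GC and length offset and 3 and 1 against siNC replicate 3 alone. The fit with the offset called 46.4% of all genes. Among ubiquitin ligase genes, BTRC (0.62), FBXW7 (0.61), which targets MCL1, and MARCHF5 (0.52), which sits in the mitochondrial outer membrane, rose. HUWE1, picked as a further ligase gene with a smaller change, fell (-0.21, edgeR adjusted p = 0.0395).

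Of 19 tested regulators of the splicing of BCL2L1, MCL1 and BCL2L11, 4 rose and 1 fell (median 0.09), against 40.8% of all genes called. The counts were 6 and 4 under the GC and length offset, 6 and 1 with the replicate block, 9 and 2 in the libraries numbered 1 and 2 alone, and 1 and 1 against siNC replicate 3 alone. Of all genes, 46.4% were called under the offset, 47.7% with the block and 55.6% in the libraries numbered 1 and 2. RBM4 (0.88), SAP18 (0.41) and RBM5 (0.24) rose, and HNRNPA1, which favours the short form of BCL2L1, had -0.35. The calls of RBM5 and SAP18 were lost against siNC replicate 3 alone (adjusted p = 0.141 and 0.200). The deposited tables sum over isoforms, so the long and short forms of these genes were not analysed here.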
